A study of Mus musculus with 8 samples.

Results

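Small and large intestine were compared across all genes in 4 Visium libraries, 2 sections of each tissue. The comparison kept every gene for which both sections of one tissue lay above both sections of the other, and 13120 of 15373 tested genes met that rule. Visium slides carry an array of barcoded capture spots, and each spot collects polyadenylated RNA from the small area of tissue above it, which can hold several cells of different types. The tissue was intestine of C57BL/6 mice, marked WT in the sample names, cut as cryosections 10 µm thick and stained by immunofluorescence on the slide. Both groups shared this strain, with no allele, agent or treatment named for either, and differed in the tissue, small intestine or large intestine. The labels gave no age, no sex, no number of animals and no position along the small or large intestine. The study calls the sections technical duplicates, so each tissue counts as 1 sample. No test between the tissues was possible and no p-value is given, and intervals cover counting error only.

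The small intestine digests and absorbs food. Its enterocytes carry hydrolases and transporters on their brush border and export dietary fat in lipoproteins, and Paneth cells at the crypt base secrete antimicrobial peptides. The large intestine takes up water and salt, carries a thicker mucus layer over a denser microbial population and has no typical Paneth cells. Both tissues have crypts with stem cells, a lamina propria rich in immune cells, and an outer muscle coat with enteric nerves. The end of the small intestine, the ileum, is the site where bile acids are reabsorbed.

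Spots with at least 500 unique molecular identifiers (UMIs, each counting 1 captured RNA molecule) numbered 2094 and 2571 in small intestine sections 1 and 2, and 2094 and 2179 in large intestine sections 1 and 2. Small intestine spots held 24355871 and 30091011 UMIs, and large intestine spots 41256923 and 43832840. The median spot had 10208.5 and 9039 against 19329 and 19822 UMIs. Levels are section sums in counts per 1000000 UMIs (CPM), always given in the order of section 1 and section 2, and a log2 ratio is the mean CPM of the small over that of the large intestine sections, so negative values mean a higher level in the large intestine. A section with fewer than 3 UMIs of a gene was set to 3 UMIs in ratios. The median absolute log2 difference of a gene was 0.199 between the small and 0.0788 between the large intestine sections, against 0.536 to 0.652 between sections of different tissues. Counting intervals of duplicate sections lay apart for 28.4% of tested genes in the small and 6.90% in the large intestine. Intervals given with a ratio come from summed UMIs and leave out this spread between duplicates. The libraries shared 997 to 1597 spot barcodes in each pair, which are positions of the array and not shared cells. The labels were checked against tissue markers: Sis and Apoa4 were near or at 0 in the large and Car1, Aqp8 and Hoxd13 below 1 CPM in the small intestine sections, while Car4 was high in all 4. Smooth muscle genes held 2.29% and 2.98% of the UMIs in the small and 0.766% and 0.769% in the large intestine sections. The muscle share therefore moved with the tissue, and its part in the results was not tested beyond the split of spots by muscle share reported with the gene groups.

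Both small intestine sections lay above both large intestine sections for 6424 genes (41.8% of those tested), and both large intestine sections lay above for 6696 genes (43.6%). A stricter count asked that the lower section of the higher tissue be at least 2 times the higher section of the other. It held for 1658 genes (10.8%) higher in the small intestine and 1573 genes (10.2%) higher in the large intestine. The small intestine count was 937 in spots of high muscle share alone and 2496 without small intestine section 1. Another 2253 genes (14.7%) overlapped between the tissues. Past 8-fold there were 317 genes on the small and 221 on the large intestine side, and past 32-fold there were 124 and 70. The 1658 genes took 26.2% and 26.0% of the UMIs in the small intestine sections and 3.70% and 3.73% in the large. The 1573 genes took 31.0% and 31.4% in the large intestine sections and 9.74% and 8.34% in the small. Without mitochondrial and ribosomal protein genes in the scaling, 40.7% of the kept genes were higher in the small intestine, against 49.0% in the main scaling. In spots of low muscle share it was 36.8%, or 37.2% of the genes past 2-fold against 51.3% in all spots, and in spots of high muscle share 40.2% and 38.7%. These settings moved the median log2 ratio of all tested genes by -0.15, -0.24 and -0.15. Of 46 functional gene lists, those of Paneth antimicrobials, brush border hydrolases and fat absorption had the largest medians on the small intestine side, and those of B and plasma cells and ribosomal proteins on the large. The plot of 2-fold shares by list orders them by this median.

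**Figure D1:**
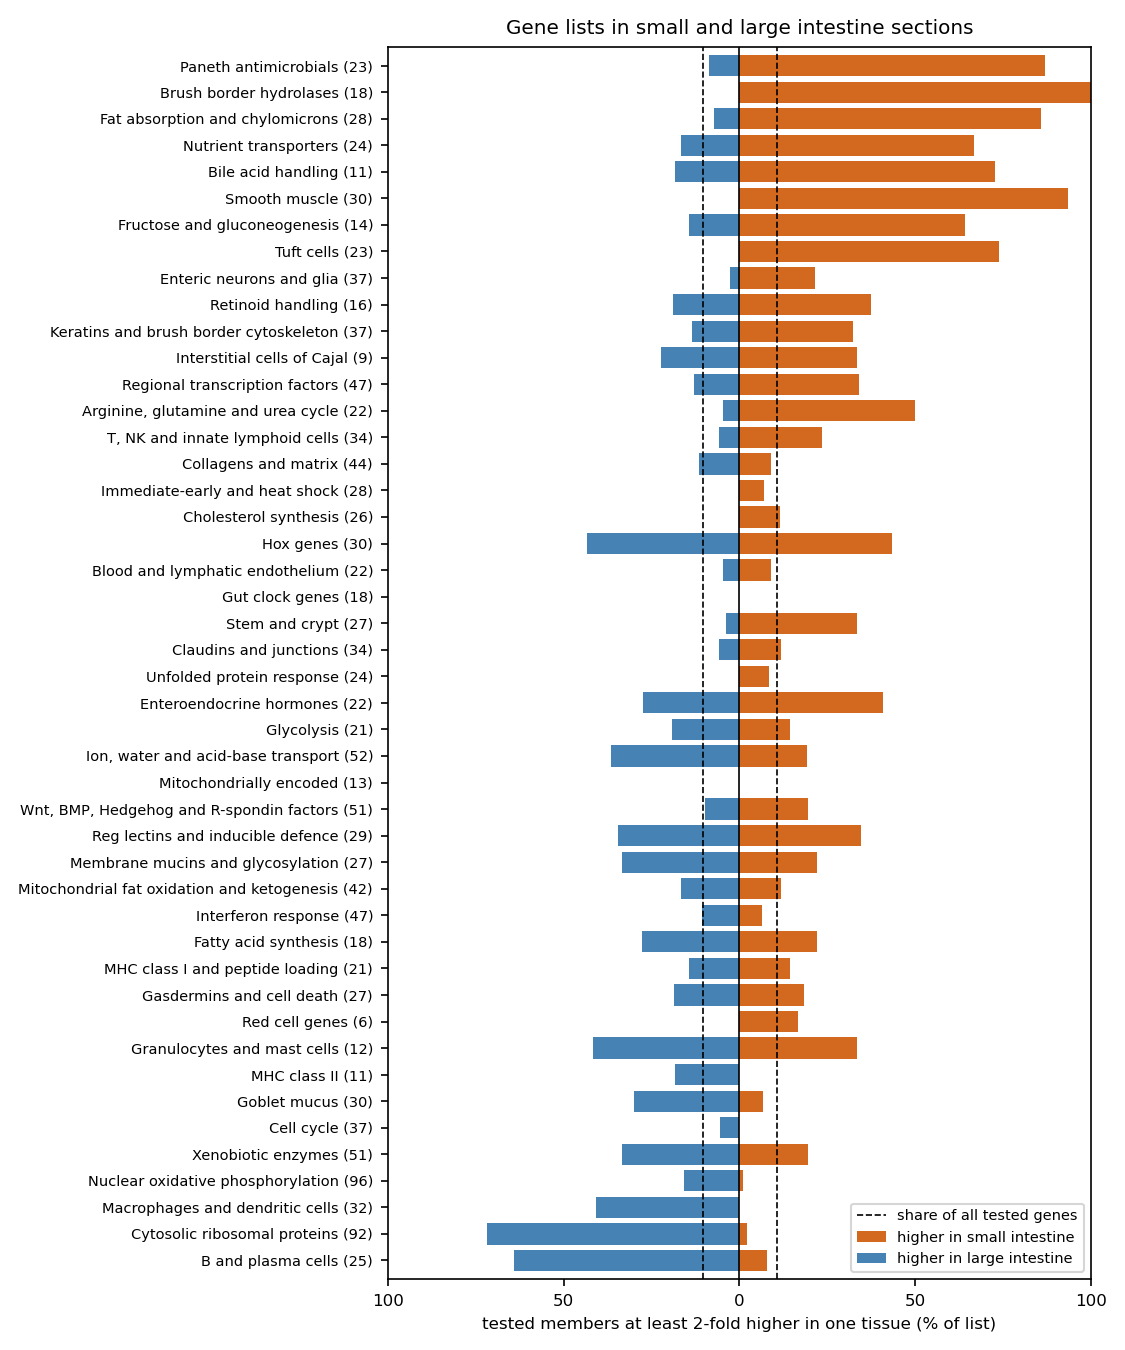
Share of the tested members of each of 46 gene lists that were at least 2-fold higher in the small intestine (right, orange) or the large intestine (left, blue), with the number of tested members in brackets and the lists ordered by median log2 ratio. Dashed lines mark the shares of all tested genes, 10.8% and 10.2%; the hydrolase list reaches 100% on the right and the ribosomal and plasma cell lists extend farthest to the left.

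The machinery of fat absorption was on the small intestine side almost throughout. Of 28 tested genes of fat absorption and chylomicron assembly, 26 were higher in the small intestine, 24 of them by at least 2-fold, and 2 were higher in the large, with a list median log2 ratio of 3.65. Apoa1, the main protein of high-density lipoprotein and part of the chylomicron, was at 3700.2 and 4499.6 CPM in small intestine against 0 and 0.0456 CPM in large intestine. The large intestine had 2 UMIs of Apoa1 in all, which gives a log2 ratio of summed UMIs, each scaled by depth, of 17.43, interval 15.57 to 20.47. Npc1l1, the transporter that takes cholesterol into the enterocyte, stood at 383 and 494 against 0.0242 and 0.0456 CPM, and 3 UMIs were counted in the large intestine (13.62, interval 12.07 to 15.90). Apoa4, another chylomicron protein, stood at 116 and 169 CPM in the small intestine sections and had no UMI in the large intestine, so it was at least 2018-fold higher in the small intestine with 3 UMIs set for each large intestine section. Further along the same route, Mttp, which loads lipid onto apolipoprotein B, was at 392 and 452 against 1.75 and 2.40 CPM, Apob itself at 397 and 556 against 11.46 and 11.47 CPM and Dgat1, which makes triglyceride, at 374 and 398 against 35.1 and 33.2 CPM. The fatty acid binding protein Fabp2 was at 3846 and 4523 against 175 and 172 CPM. These genes were high in both small intestine sections and never overlapped with the large intestine. The exceptions were Plin2, a coat protein of lipid droplets, at 35.1 and 31.9 against 122 and 124 CPM, and Scarb1, a lipoprotein receptor, at 4.52 and 5.15 against 14.7 and 14.6 CPM. The fat cell markers moved to the same side, with Adipoq at 6.45 and 3.42 against 0.0242 and 0.319 CPM, Plin1 at 1.77 and 0.798 against 0 and 0.137 CPM and Cidec, which enterocytes also express, at 33.6 and 45.8 against 2.69 and 3.33 CPM. Of 8 markers of pancreas and stomach, Prss1, Cpa1, Gkn1 and Muc5ac had no UMI in any section. Cela3b and Tff1 had at most 2 UMIs in a section. Pnliprp2, a lipase, was at 436 and 359 against 5.99 and 4.33 CPM and the elastase Cela1 at 11.9 and 9.64 against 243 and 255 CPM. The part of fat tissue or of other organs in this list was not tested.

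Brush border hydrolases were the most one-sided list. All 18 tested members were at least 2-fold higher in the small intestine, with a median log2 ratio of 6.31. Sis, the sucrase-isomaltase that splits dietary sugars, was at 562 and 610.5 CPM in small intestine against 0.0485 and 0.0456 CPM in large intestine, with 4 UMIs in the large intestine (log2 ratio of summed UMIs 13.61, interval 12.26 to 15.49). The aminopeptidase Anpep stood at 2416 and 3679 against 4.02 and 4.65 CPM and the peptidase Ggt1 at 319 and 389 against 0.945 and 1.004 CPM. Alpi, the intestinal alkaline phosphatase, was at 174 and 261 against 1.99 and 2.10 CPM. The least one-sided member was the maltase-glucoamylase Mgam, at 499 and 565 against 117 and 113 CPM. Lct, the lactase of the upper small intestine, was an exception in level. It had only 13 and 20 UMIs in the small and 3 and 2 in the large intestine sections, too few for the tested set. Gata4, a transcription factor of the upper small intestine, was also low, at 1.15 and 1.76 against 0.121 and 0.0913 CPM. In the small intestine library of sorted single cells both were far above the large intestine library, with log2 ratios of 10.1 and 9.06, so the sections and the sorted cells differed in these genes.

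Uptake of sugars, amino acids and nucleosides followed the same side. Of 24 tested nutrient transporters, 18 were higher in the small intestine (16 by at least 2-fold), 5 in the large (4 by at least 2-fold) and 1 overlapped. The neutral amino acid transporter Slc6a19 was at 523 and 658 CPM in small intestine against 0.679 and 0.753 CPM in large intestine (log2 ratio 9.69; 95% interval of the counting error 9.34 to 10.09). The sodium-glucose transporter Slc5a1 stood at 1243 and 1684 against 75.3 and 71.55 CPM, and the nucleoside transporter Slc28a1 at 37.6 and 50.6 CPM with no UMI in the large intestine, at least 625-fold higher. Slc3a1, which pairs with Slc7a9 to carry cystine and basic amino acids, was at 218 and 243 against 9.65 and 9.63 CPM, and Slc7a9 at 337 and 385 against 10.54 and 10.3 CPM. The 5 members that went the other way carry or bind calcium, iron, folate and amino acids. Trpv6, an apical calcium channel, was at 0.0821 and 0 against 51.3 and 55.3 CPM with 2 UMIs in the small intestine (-10.51, interval -13.55 to -8.65), the iron exporter Slc40a1 at 41.1 and 36.3 against 124 and 127 CPM and the folate transporter Slc46a1 at 6.45 and 5.95 against 25.6 and 24.1 CPM. The amino acid transporter Slc36a1 was at 23.3 and 26.6 against 99.2 and 94.7 CPM, and the calcium-binding S100g, short of 2-fold, at 194 and 195 against 332 and 364 CPM. In the list of fructose use and gluconeogenesis, 9 of 14 tested genes were at least 2-fold higher in the small and 2 in the large intestine. The fructose transporter Slc2a5 was at 36.4 and 46.6 against 1.99 and 2.83 CPM, and the fructose-breaking enzymes Khk and Tkfc at 83.3 and 91.2 against 16.8 and 16.9 CPM and 75.96 and 82.6 against 8.31 and 8.40 CPM. The gluconeogenic enzymes Pcx and Pck2 were the 2 higher in the large intestine, at 33.3 and 37.1 against 88.9 and 87.7 CPM and 22.3 and 19.6 against 45.3 and 47.1 CPM.

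Promoters of these absorptive genes are shown because these genes were higher together and because some hold short motifs of transcription factors known in the gut epithelium. The sequences are RefSeq promoters of build GRCm38.p6, 250 bases before to 50 bases after the gene start, read on the strand of the gene. Capitals mark matches on either strand to the motifs searched. The GATA motif was spelled AGATAA. For HNF4 it was CAAAGTCCA. The HNF1 half-site was spelled GTTAAT. The CDX motif was spelled TTTATG. Sis (chr3:72967814-72968113, minus strand) and Slc3a1 (chr17:85028097-85028396, plus strand) read as follows.
Sis: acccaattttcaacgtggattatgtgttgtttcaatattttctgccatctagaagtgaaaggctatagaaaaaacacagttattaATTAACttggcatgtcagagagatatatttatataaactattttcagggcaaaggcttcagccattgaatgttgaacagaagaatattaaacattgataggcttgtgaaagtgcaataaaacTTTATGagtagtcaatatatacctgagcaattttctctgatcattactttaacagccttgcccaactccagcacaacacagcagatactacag
Slc3a1: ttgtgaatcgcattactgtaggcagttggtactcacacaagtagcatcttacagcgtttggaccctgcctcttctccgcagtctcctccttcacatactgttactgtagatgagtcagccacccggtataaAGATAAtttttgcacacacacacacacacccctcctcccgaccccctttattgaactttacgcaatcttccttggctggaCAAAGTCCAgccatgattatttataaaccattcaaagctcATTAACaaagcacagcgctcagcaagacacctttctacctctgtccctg
The Sis promoter holds an HNF1 half-site that begins 165 bases before the start and a CDX motif that begins 43 bases before it. The Slc3a1 promoter holds a GATA motif, an HNF4 motif that begins 39 bases before the start, and an HNF1 half-site. Such a match describes the letters of the window and is not a measured binding site.

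Genes of bile acid reabsorption, a function of the ileum, were high in both small intestine sections. Of 11 tested genes of bile acid handling, 9 were higher in the small intestine (8 by at least 2-fold) and 2 in the large by at least 2-fold. Slc10a2, the sodium-dependent transporter that takes bile acids up, was at 831 and 962 CPM in small intestine against 1.89 and 1.98 CPM in large intestine (log2 ratio 8.85; 95% interval of the counting error 8.64 to 9.09). Slc51a, a subunit of the exporter on the other face of the cell, stood at 1286 and 1508 against 0.582 and 0.411 CPM, and its partner Slc51b at 280.3 and 286 against 65.2 and 69.9 CPM. The cytosolic bile acid binding protein Fabp6 was at 5816 and 5149 against 89.1 and 104 CPM. Fgf15, the hormone that signals bile acid return to the liver, was at 19.8 and 34.7 CPM with no UMI in the large intestine, at least 387-fold higher. The receptor Nr1h4 was at 97.6 and 97.7 against 44.3 and 44.51 CPM. Slc51a and Slc51b, which work as 1 exporter, thus differed between the tissues by unequal amounts, with log2 ratios of 11.46 and 2.07. Higher in the large intestine were the exporter Abcc3, at 46.97 and 43.4 against 127 and 125 CPM, and the sterol hydroxylase Cyp27a1, at 4.31 and 6.31 against 13.1 and 13.9 CPM. In the sorted epithelial cells the Slc10a2 ratio was smaller, at 1.72. Of 16 tested genes of retinoid handling, 6 were at least 2-fold higher in the small and 3 in the large intestine. Rbp2, the cellular retinol binding protein of enterocytes, was at 214 and 248 against 16.2 and 20.46 CPM, Lrat, which stores retinol as an ester, at 7.35 and 6.31 against 0.412 and 0.433 CPM, and Retsat, a retinol saturase, at 9.40 and 7.11 against 48.9 and 46.9 CPM.

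Paneth cell products gave some of the largest differences. Of 23 tested Paneth genes, 21 were higher in the small intestine and 20 of these by at least 2-fold, while Mptx1 and Nupr1 were at least 2-fold higher in the large, with a median log2 ratio of 11.17. The alpha-defensin Defa24 was at 20663 and 11215 CPM in small intestine against 0.291 and 0.137 CPM in large intestine (log2 ratio 16.18; 95% interval of the counting error 15.49 to 16.91). After each spot was thinned to 2000 UMIs, Defa24 was found in 99.9% and 98.9% of the small intestine spots and in 0.0960% and 0% of the large intestine spots. Before thinning the shares were 100% and 99.9% and 0.478% and 0.229%. These are shares of spots that caught the RNA, and which cells in or near a spot made it was not tested. Thinning left out 31 and 147 small and 10 and 13 large intestine spots that held fewer UMIs. Lyz1, the Paneth lysozyme, was at 3007 and 1919 against 6.74 and 6.43 CPM, and Mmp7, the protease that activates defensins in the mouse, at 227 and 107 against 0.461 and 0.502 CPM. All 18 tested Defa genes were at least 2-fold higher in the small intestine, and together they held 45387 and 24078 CPM there against 0.461 and 0.365 CPM in the large. Defensin levels also differed between the small intestine sections. In 17 of 18 Defa genes section 1 was above section 2, by a median of 2.30 times and a highest of 4.19 times. The Defa genes are close copies of each other, so the split of UMIs among them is uncertain.

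A pair of related pentraxin genes on chromosome 1 took opposite sides. Mptx2 was at 952 and 416 CPM in small intestine against 0.0242 and 0.0228 CPM in large intestine, with 2 UMIs in the large intestine (log2 ratio of summed UMIs 14.77, interval 12.91 to 17.81). Mptx1 was at 86.4 and 56.2 CPM in small intestine against 5537 and 5134 CPM in large intestine, a log2 ratio of -6.23 (95% interval of the counting error -6.30 to -6.21). Their promoters are shown because the genes are related and their levels go in opposite directions. Mptx1 lies at chr1:174330268-174330567, plus strand, and Mptx2 at chr1:173277707-173278006, minus strand.
Mptx1: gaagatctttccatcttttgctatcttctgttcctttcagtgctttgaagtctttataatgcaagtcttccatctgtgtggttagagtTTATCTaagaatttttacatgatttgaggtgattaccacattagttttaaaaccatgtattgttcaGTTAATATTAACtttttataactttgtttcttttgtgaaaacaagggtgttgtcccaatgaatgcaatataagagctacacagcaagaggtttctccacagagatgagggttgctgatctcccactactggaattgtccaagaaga
Mptx2: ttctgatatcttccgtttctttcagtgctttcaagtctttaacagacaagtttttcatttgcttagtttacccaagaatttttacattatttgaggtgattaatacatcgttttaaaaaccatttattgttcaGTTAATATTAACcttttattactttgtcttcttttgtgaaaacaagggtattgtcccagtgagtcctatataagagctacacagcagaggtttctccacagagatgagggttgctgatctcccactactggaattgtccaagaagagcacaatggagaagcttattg
A global alignment matched 252 of 277 aligned bases (91.0%). Both promoters carry HNF1 half-sites on both strands side by side. The Mptx1 promoter alone holds a GATA motif, which begins 162 bases before its start.

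Inducible defence genes split between the tissues. Of 29 tested members, 10 were at least 2-fold higher in the small and 10 in the large intestine, and the list median of -0.07 changed sign in spots of low or high muscle share and without large intestine section 2. Reg3b and Reg3g, secreted lectins that act on bacteria at the mucosa, were among the most abundant messages of the small intestine. Reg3b was at 35342 and 30896 CPM in small intestine against 96.7 and 108 CPM in large intestine, and Reg3g was at 15166 and 14047 CPM in small intestine against 28.4 and 33.7 CPM in large intestine. Their log2 ratios were 8.34 and 8.88, but in the sorted epithelial cells only 0.73 and 0.65. In the large intestine sections, 92.6% and 93.5% of the Reg3b UMIs lay in the 10% of spots with the most, against 44.8% and 54.2% in the small. The oxidase Duox2 and its partner Duoxa2, which make hydrogen peroxide at the surface, were at 1439 and 1758 against 173 and 171 CPM and 1246 and 1713 against 134 and 138 CPM. On the large intestine side stood Lypd8, a protein that binds flagellated bacteria, at 1655 and 1575 against 12106 and 12580 CPM, and the mucus lectin Zg16, at 2360.4 and 2372 against 7277 and 7858 CPM. Ly6g, otherwise used as a neutrophil marker, was at 0.287 and 0.199 CPM in small intestine against 273 and 296 CPM in large intestine (-10.22, interval -11.13 to -9.45 from summed UMIs). The neutrophil genes S100a8 and S100a9 were low in all sections, at 0.411 and 0.233 against 5.31 and 2.85 CPM and 0.370 and 0.532 against 3.30 and 2.28 CPM, and Csf3r overlapped at 1.68 and 2.16 against 1.70 and 1.60 CPM. The sorted epithelial cells gave Ly6g a log2 ratio of -7.28, and its UMIs were found in 31.4% and 31.7% of large intestine spots after and 69.9% and 68.9% before thinning.

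**Figure D2:**
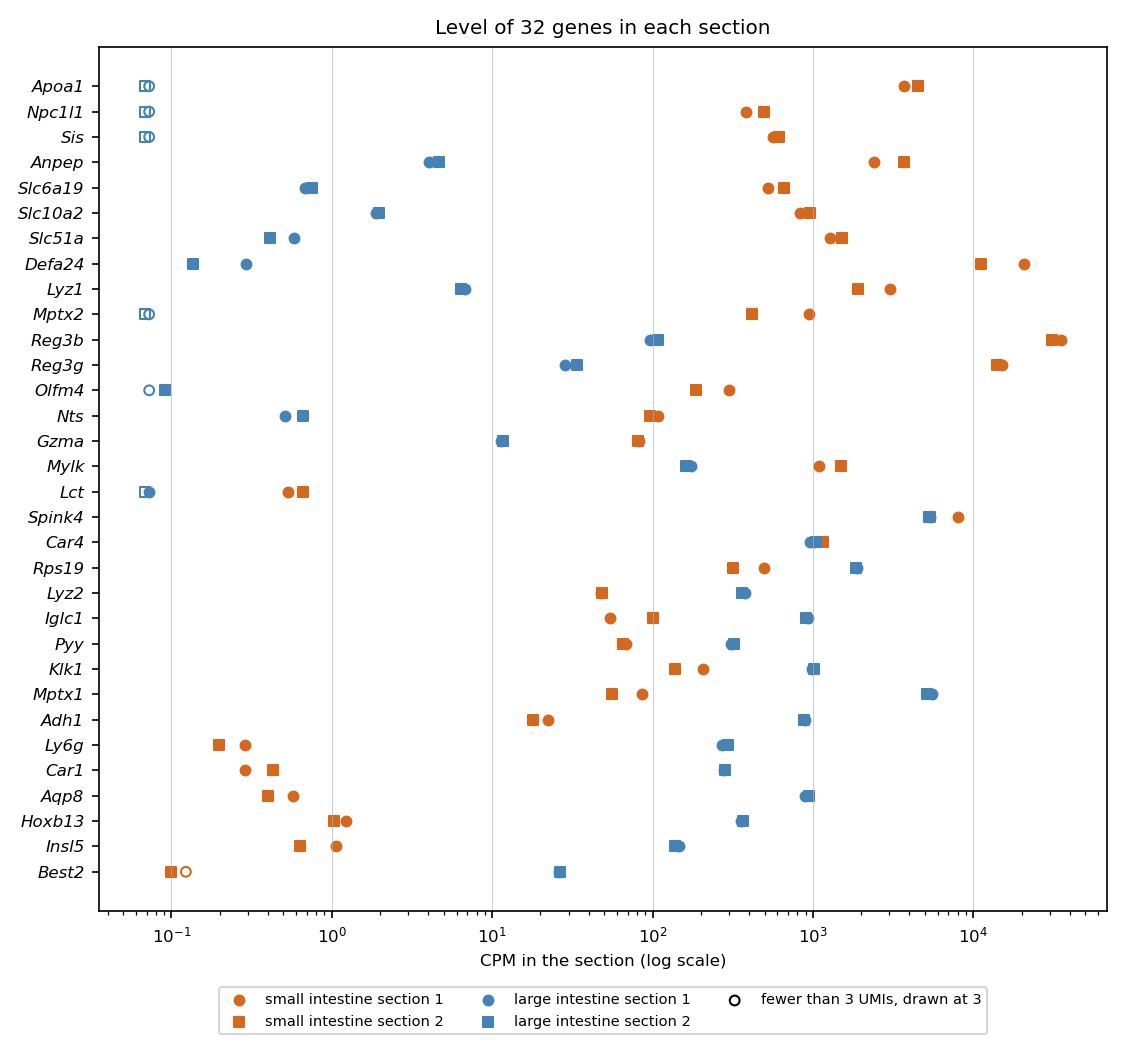
CPM of 32 genes in each of the 4 sections on a log axis, with circles for section 1 and squares for section 2, orange for small and blue for large intestine, and open symbols where fewer than 3 UMIs were counted. The tissues lie apart by up to several powers of 10 for Apoa1, Defa24 or Aqp8, while Car4 and Spink4 overlap.

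Salt and water transport genes lay on both sides. Of 52 tested, 24 were higher in the small and 25 in the large intestine, and 19 were at least 2-fold higher in the large and 10 in the small intestine, where 10.2% and 10.8% of all genes were. The list median was 0.01 and changed sign in 6 of 14 alternative settings, with large differences in both directions. The water channel Aqp8 was at 0.575 and 0.399 CPM in small intestine against 891 and 952 CPM in large intestine (log2 ratio -10.89; 95% interval of the counting error -11.53 to -10.36). The proton-potassium pump Atp12a stood at 0.575 and 0.631 against 428 and 416 CPM, and the carbonic anhydrase Car1 at 0.287 and 0.432 against 279 and 282 CPM. All 3 subunits of the epithelial sodium channel were higher in the large intestine, with Scnn1a at 13.96 and 13.6 against 61.8 and 62.47 CPM, Scnn1b at 0 and 0.0332 against 6.40 and 6.94 CPM and Scnn1g at 0.0411 and 0.0665 against 1.82 and 1.94 CPM. Hsd11b2, which protects the mineralocorticoid receptor from glucocorticoids, was at 8.62 and 5.42 against 237 and 241 CPM, and the receptor gene Nr3c2 at 26.2 and 28.2 against 55.8 and 54.3 CPM. The chloride exchanger Slc26a3 was at 38.47 and 40.4 against 516 and 522 CPM. The small intestine had instead the exchanger Slc26a6, at 342 and 411 against 1.94 and 1.78 CPM, the glycerol and water channel Aqp7, at 28.3 and 41.2 against 0 and 0.137 CPM, and Guca2b, the peptide uroguanylin, at 373 and 384 against 18.6 and 18.3 CPM. The pump regulator Fxyd4 had 1 UMI in the small intestine and stood at 0.0411 and 0 against 36.2 and 38.7 CPM (-10.99, interval -16.30 to -8.52 from summed UMIs). Car4, another carbonic anhydrase, overlapped at 1012 and 1157 against 963 and 1050.4 CPM. Of 34 tested claudin and junction genes, 4 were at least 2-fold higher in the small and 2 in the large intestine. The pore-forming Cldn15 was at 262 and 296 against 73.2 and 68.4 CPM and the barrier claudin Cldn8 at 3.41 and 1.496 against 113 and 108 CPM.

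Goblet cell genes leaned to the large intestine. Of 30 tested genes of goblet mucus, 20 were higher in the large intestine (9 by at least 2-fold), 4 in the small (2 by at least 2-fold) and 6 overlapped, with a median log2 ratio of -0.58. Muc2, the gel-forming mucin, was at 2684 and 2375 against 3856 and 3485 CPM, and Clca1, a mucus-processing protease, at 2882 and 2455 against 3992 and 3785 CPM, differences below 2-fold. Larger differences were those of Best2, a bicarbonate channel of colonic goblet cells, at 0.0821 and 0.0997 CPM in small intestine against 26.03 and 26.7 CPM in large intestine, and of the kallikrein Klk1, at 205 and 138 against 982 and 1016 CPM. Spink4, the goblet gene with the most UMIs among those that overlapped, was at 7997 and 5366 against 5405 and 5312 CPM. Scin, an actin-severing protein, and the glycosyltransferase Gcnt3 were the 2 past 2-fold on the small intestine side, at 334 and 387 against 112 and 101 CPM and 176 and 178 against 70.53 and 70.4 CPM. Among 27 tested membrane mucins and glycosylation genes, 6 were at least 2-fold higher in the small and 9 in the large intestine, and the median of -0.16 turned positive in low-muscle spots. Muc1 was at 0.493 and 0.864 against 31 and 29.3 CPM and the sialyltransferase St6galnac6 at 14.2 and 14.8 against 399 and 442 CPM, while another sialyltransferase, St3gal4, was at 1747 and 1894 against 368 and 380.1 CPM. In the list of keratins and brush border cytoskeleton, 12 of 37 tested genes were at least 2-fold higher in the small and 5 in the large intestine. The actin bundlers Espn and Pls1 were at 199 and 232 against 30.9 and 36.6 CPM and 841 and 988 against 196 and 199 CPM. Tgm3, a transglutaminase, stood at 0.780 and 0.698 against 511 and 569 CPM and the annexin Anxa1 at 16.8 and 19.8 against 156 and 162 CPM. St8sia5, another sialyltransferase and a member of no list, was among the 10 largest differences on the large intestine side, at 0 and 0.0332 against 37.4 and 39.3 CPM with 1 UMI in the small intestine (-11.03, interval -16.33 to -8.55 from summed UMIs).

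Detoxifying enzymes were divided by family member. Of 51 tested xenobiotic genes, 17 were at least 2-fold higher in the large and 10 in the small intestine. The alcohol dehydrogenase Adh1 was at 22.3 and 17.9 CPM in small intestine against 890 and 886 CPM in large intestine, and its relative Adh6a at 33.8 and 43.3 against 0.873 and 0.844 CPM, the reverse order. The sulfotransferase Sult1a1 was at 6.28 and 5.68 against 208 and 206 CPM and the cytochrome Cyp2f2 at 0.123 and 0 against 7.83 and 8.05 CPM, while Cyp4f14 and Cyp4b1 were at 472 and 502 against 42.4 and 47.8 CPM and 9.40 and 13.2 against 1.26 and 1.14 CPM. Over all 35 tested Cyp genes, 11 were at least 2-fold higher on each side. Lists of fat, sterol and sugar metabolism follow, where 10.8% and 10.2% of all genes passed 2-fold in the small and large intestine. Of 42 tested genes of mitochondrial fat oxidation and ketogenesis, 5 were at least 2-fold higher in the small and 7 in the large intestine. Of 18 fatty acid synthesis genes, 4 were at least 2-fold higher in the small and 5 in the large intestine. Me1, malic enzyme, was at 212 and 219 against 9.84 and 9.19 CPM, while Acly, which makes cytosolic acetyl-CoA, was at 53.4 and 51.4 against 212 and 216 CPM. Cholesterol synthesis had 3 of 26 tested genes past 2-fold in the small and none in the large intestine, with Cyp51 at 281 and 322 against 124 and 122 CPM. Glycolysis had 3 and 4 of 21, and its median of 0.02 changed sign in 4 settings. In the list of arginine, glutamine and the urea cycle, 11 of 22 were at least 2-fold higher in the small and 1 in the large intestine. Aldh18a1 of this list had a log2 ratio of 0.05, which changed sign in 4 settings. Nags, Cps1 and Otc, which act in citrulline synthesis, were higher in the small intestine. Nags was at 28.2 and 31.6 against 1.38 and 1.73 CPM, Cps1 at 177 and 105 against 5.96 and 7.14 CPM and Otc at 70.4 and 67.2 against 7.30 and 7.21 CPM. The later enzymes Ass1 and Asl, which turn citrulline into arginine, went the other way at 9.24 and 13.49 against 20.4 and 21.6 CPM and 21.6 and 18.6 against 30.9 and 31.8 CPM, both under 2-fold. Glul, glutamine synthetase, was at 53.3 and 60.8 against 253 and 248 CPM.

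Transcription factors of regional identity were found on both sides. Of 47 tested regional factors, 16 were at least 2-fold higher in the small and 6 in the large intestine. Gata5 was at 42.3 and 43.4 CPM in small intestine against 0.0242 and 0.228 CPM in large intestine, Osr2 at 68.9 and 67.7 against 0.461 and 0.525 CPM and Tbx3 at 177 and 231 against 5.57 and 4.86 CPM. On the large intestine side, Foxd2 was at 0.164 and 0.199 against 27.1 and 28.3 CPM and Pparg at 5.99 and 5.85 against 30.6 and 32.8 CPM. The caudal factors took opposite sides, with Cdx1 at 126 and 83.2 against 304 and 297 CPM and Cdx2 at 137 and 124 against 57.95 and 60.6 CPM. The broad gut factors were closer, with Hnf4a at 247 and 271 against 345 and 349.8 CPM and Klf5 at 592 and 599.7 against 420.1 and 391 CPM.

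Hox genes, which give cells their position along the body axis, divided by their number within the cluster. Of 30 tested Hox genes, 15 were higher in each tissue, 13 of each set by at least 2-fold. The list median of 0.36 changed sign in spots of low and of high muscle share and among genes with at least 200 UMIs. Among the 12 with numbers 9 to 13, 11 were higher in the large intestine and 10 by at least 2-fold; Hoxc9 was the exception, at 4.27 and 5.75 against 0.0242 and 0 CPM. Among the 18 with numbers 2 to 8, 14 were higher in the small intestine and 12 by at least 2-fold. The 4 that went the other way were Hoxa2, Hoxa3, Hoxa5 and Hoxa7, all of the Hoxa cluster. Hoxb13 was at 1.23 and 1.03 CPM in small intestine against 356 and 368 CPM in large intestine (log2 ratio -8.32; 95% interval of the counting error -8.72 to -7.97), Hoxd13 at 0.205 and 0.166 against 68.1 and 59.9 CPM and Hoxa13 at 0.164 and 0.233 against 34.3 and 32.6 CPM. On the other side, Hoxc8 was at 17.9 and 25.6 CPM with no UMI in the large intestine, at least 308-fold higher, and Hoxb6 at 35.9 and 41.01 against 0.727 and 0.981 CPM. Hoxb9 lay at the border between the sets, at 13.02 and 12.99 against 14.4 and 13.1 CPM. The position within the wall was read as a muscle-side ratio, the log2 ratio of CPM between the muscle-rich and the muscle-poor 25% of the spots of a section. It was computed only for genes with at least 20 UMIs in those spots, which many Hox genes lacked in the tissue where they were low. In the small intestine its median was 2.36 over the 13 genes at least 2-fold higher there, with Hoxb6 at -0.26 and -0.06 and Hoxc8 at 4.94 and 4.71 in the 2 sections. In the large intestine its median was -0.03 over the 13 genes at least 2-fold higher there, with Hoxb13 at -0.39 and -0.29 and Hoxd12 at 1.61 and 1.36. With spots of low muscle share alone, 14 Hox genes were at least 2-fold higher in the small and 15 in the large intestine. Only Hoxa4 and Hoxb9, neither past 2-fold, changed direction in any of the 12 settings run for single genes.

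**Figure D3:**
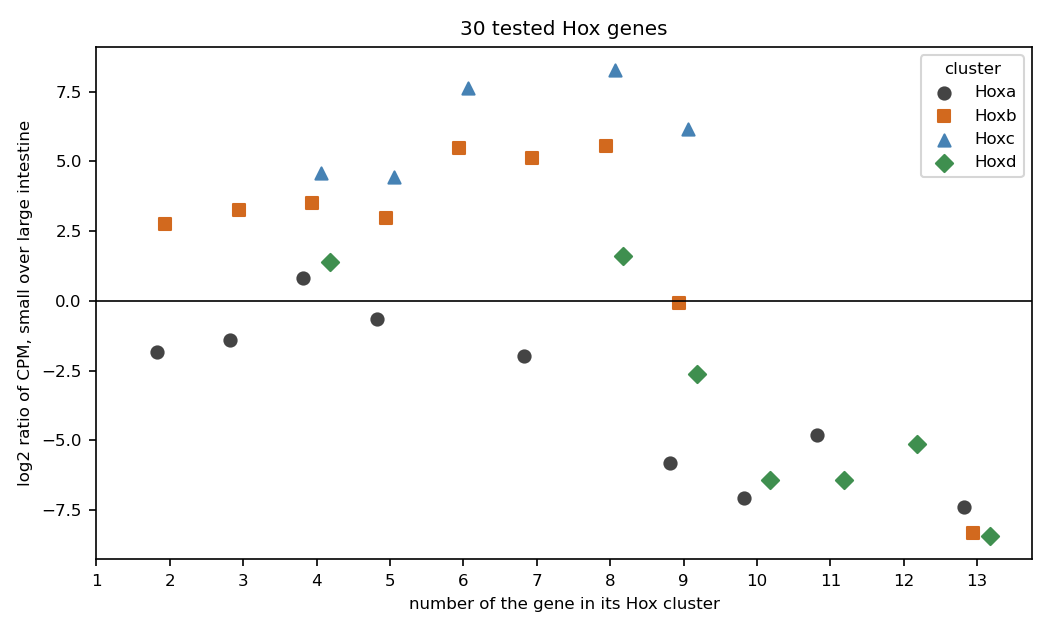
Log2 ratio of CPM, small over large intestine, of 30 tested Hox genes against their number within the cluster, with marker shape and colour for the 4 clusters. Genes with numbers 9 to 13 lie below 0 except Hoxc9, and those of the Hoxb and Hoxc clusters with numbers up to 8 lie above 0.

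Crypt genes did not share a direction. Of 27 tested stem and crypt genes, 9 were at least 2-fold higher in the small and 1 in the large intestine. Of all tested genes, 10.8% and 10.2% were. The list median of 0.28 changed sign in spots of low and of high muscle share. Olfm4, a secreted glycoprotein that marks small intestinal stem cells in the mouse, was at 299 and 186 CPM in small intestine against 0 and 0.0913 CPM in large intestine. The large intestine had 4 UMIs of Olfm4, a log2 ratio of summed UMIs of 12.30, interval 10.94 to 14.17, and the sorted cells gave 10.50. Among Wnt target genes, Sp5 was at 2.38 and 2.56 against 0.0970 and 0.160 CPM, Axin2 at 36.8 and 40.8 against 12.6 and 12.7 CPM and Nkd1 at 18.1 and 22.46 against 4.99 and 5.04 CPM. Ascl2, a stem cell factor, was at 2.59 and 2.16 against 6.28 and 7.05 CPM and Lrig1, a receptor inhibitor of stem cells, at 24.4 and 22.1 against 52.8 and 47.3 CPM, both higher in the large intestine. The Olfm4 promoter (chr14:80000052-80000351, plus strand) is shown because it holds a CDX motif and an HNF1 half-site a few bases apart, 228 and 219 bases before the start.
Olfm4: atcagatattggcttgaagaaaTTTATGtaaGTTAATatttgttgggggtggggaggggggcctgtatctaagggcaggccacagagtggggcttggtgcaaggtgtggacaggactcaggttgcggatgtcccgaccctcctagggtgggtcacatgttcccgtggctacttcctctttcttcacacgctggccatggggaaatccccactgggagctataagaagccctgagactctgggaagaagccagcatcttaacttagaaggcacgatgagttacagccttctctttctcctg
Of 37 tested cell cycle genes, 30 were higher in the large intestine and 2 in the small, but only 2 passed 2-fold, with a median log2 ratio of -0.60. Gins2, a replication factor, was at 3.28 and 1.93 against 11.9 and 12.05 CPM and Tyms, thymidylate synthase, at 11.7 and 8.01 against 31.4 and 33.8 CPM. The cyclin Ccnd1 was at 119 and 97.2 against 72.9 and 72.2 CPM. Among signals of the niche, 51 Wnt, BMP, Hedgehog and R-spondin genes were tested. At least 2-fold higher were 10 in the small and 5 in the large intestine, the latter near the 10.2% of all genes. The list median of -0.05 changed sign in 3 settings. Wnt3, the Wnt ligand of Paneth cells, was at 6.90 and 3.59 against 0.0485 and 0.0228 CPM with 3 UMIs in the large intestine (7.17, interval 5.61 to 9.45). The BMP inhibitor Grem1 was at 91.1 and 113 against 18.95 and 18 CPM, and Fgf10 and Sfrp2 were at 0.328 and 0.299 against 3.37 and 2.87 CPM and 0.123 and 0.399 against 4.46 and 4.17 CPM.

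Hormone genes of enteroendocrine cells separated by hormone. Of 22 tested members, 9 were at least 2-fold higher in the small and 6 in the large intestine, and the list median of 0.22 changed sign in low-muscle spots. Nts, neurotensin, was at 108 and 96.3 CPM in small intestine against 0.509 and 0.662 CPM in large intestine, and secretin (Sct) at 99.6 and 97.54 against 18.49 and 20.8 CPM. Insl5, a hormone of colonic L cells, was at 1.07 and 0.631 CPM in small intestine against 147 and 139 CPM in large intestine. The peptide Pyy was at 67.9 and 65.2 against 309 and 323 CPM, Tph1, which makes serotonin, at 0.739 and 0.864 against 5.96 and 6.84 CPM, and Gcg, the gene of glucagon-like peptides, overlapped at 43.4 and 35.6 against 43.3 and 40.6 CPM. After thinning, Nts was found in 8.48% and 7.55% of small intestine spots, and in 23.7% and 22.2% before. For Insl5 the shares of large intestine spots were 17.47% and 16.6% after and 55.49% and 55.7% before thinning. Tuft cell genes went together. Of 23 tested, 22 were higher in the small intestine, 17 by at least 2-fold, and 1 was higher in the large by less than 2-fold, with a median log2 ratio of 1.62. Sucnr1, the succinate receptor, was at 5.54 and 6.21 against 0.0242 and 0 CPM, Pou2f3, the factor that tuft cells need, at 6.24 and 4.05 against 0.582 and 0.456 CPM, and the cytokine Il25 at 1.03 and 1.76 against 0.0727 and 0.114 CPM. In the sorted epithelial cells, 22 of the 23 tuft genes had the same sign. Counts of a list in such sections cannot tell more cells of a type from more RNA per cell.

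Muscle and nerve genes were higher in the small intestine sections, and the muscle share of the spots moved with them. All 30 tested smooth muscle genes were higher in the small intestine, 28 by at least 2-fold, with a median log2 ratio of 2.05. Mylk, the kinase that starts smooth muscle contraction, was at 1086 and 1502 CPM in small intestine against 175 and 162 CPM in large intestine, and Pcp4, a calmodulin regulator, at 177 and 243 against 14.1 and 13.6 CPM. Of 6 skeletal muscle markers, Ckm was at 71.6 and 91.7 against 8.68 and 10.3 CPM, Acta1 at 21.3 and 29.4 against 12.6 and 12.1 CPM, Tnnt3 at 3.24 and 4.92 against 0.533 and 0.639 CPM and Myl1 at 3.16 and 8.67 against 1.38 and 0.935 CPM. Mylpf went the other way at 1.85 and 1.63 against 2.25 and 2.28 CPM, and Myh4, which defines fast fibres, had 1 UMI in all. Spots were split at the median muscle share over all spots, 0.667%, and 40.6% and 24.1% of small but 69.6% and 70.8% of large intestine spots fell below it. Within the low-muscle spots 12 of 30 muscle genes were at least 2-fold higher in the small intestine and within the high-muscle spots 7, with medians of 0.90 and 0.90. The split used these same 30 genes, so their values within each set of spots are tied to it and are no independent control. Of 37 tested genes of enteric neurons and glia, 31 were higher in the small intestine (8 by at least 2-fold), but the median of 1.08 became 0.24 in low-muscle and -0.11 in high-muscle spots. The neuropeptide Gal was the largest difference, at 79.8 and 79.96 CPM in small intestine against 3.78 and 4.31 CPM in large intestine, with a muscle-side ratio of 6.85 and 5.87 in the small intestine; its log2 ratio of 4.30 ranged from 2.85 to 4.40 over all settings. The neuropeptides Npy and Cartpt were at 11.54 and 12.4 against 2.81 and 2.05 CPM and 12.6 and 16.4 against 3.20 and 3.08 CPM, and Chgb, a granule protein of neurons and endocrine cells, at 16.3 and 16.3 against 44.4 and 47.4 CPM. Of 9 tested genes of interstitial cells of Cajal, the pacemaker cells of the gut, 3 were at least 2-fold higher in the small and 2 in the large intestine, and the median of 0.74 became -0.31 in low-muscle and -0.23 in high-muscle spots. Their channel Ano1 was at 25.3 and 29.4 against 123 and 121 CPM, whereas Kit was at 31.6 and 33.6 against 19.2 and 16.47 CPM. The muscle-side ratio of Ano1 was 2.46 and 2.77 in the small intestine and 0.20 and 0.16 in the large.

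Within the low- and high-muscle spots the median log2 ratio of all tested genes was itself -0.25 and -0.15, and the medians of matrix and vessel genes there are read against it. Of 44 tested collagen and matrix genes, 4 were at least 2-fold higher in the small and 5 in the large intestine, near the 10.8% and 10.2% of all genes, and the median of 0.47 became -0.60 in low-muscle and -0.24 in high-muscle spots. Col1a1 was at 325 and 384 against 147 and 143 CPM and tenascin (Tnc) at 102 and 123 against 42.54 and 39.9 CPM, while laminin Lama2 was at 4.56 and 3.89 against 13.1 and 11.8 CPM and the microfibril protein Mfap5 at 3.78 and 3.46 against 13.2 and 15.9 CPM. Of 22 tested genes of blood and lymphatic endothelium, 2 and 1 passed 2-fold, shares below those of all genes, and the median of 0.36 became -0.01 and -0.34. In all, 14 of these vessel genes were higher in the small and 6 in the large intestine. Fabp4, a capillary and fat cell gene, was at 90.1 and 77.9 against 29.1 and 30.2 CPM. The lymphatic genes Ccl21a and Lyve1 went the other way, with log2 ratios of -1.29 and -1.06. Of 6 tested red cell genes, 5 were higher in the large intestine, with Hbb-bs at 33.4 and 46.2 against 70.8 and 86.9 CPM.

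**Figure D4:**
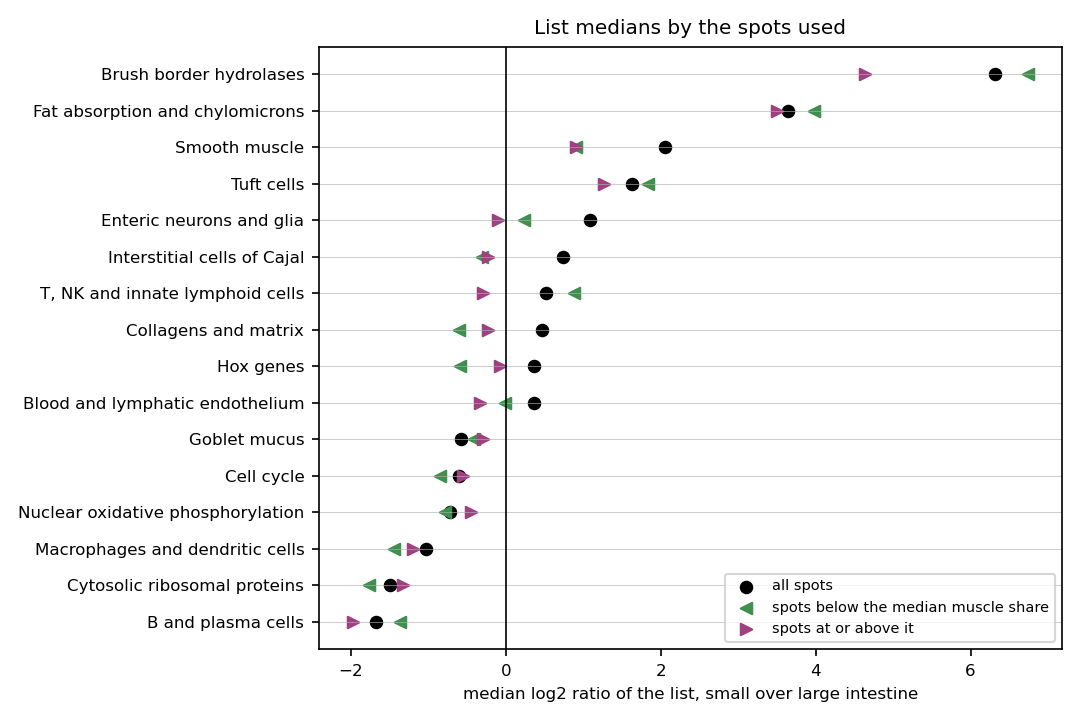
Median log2 ratio, small over large intestine, of 16 gene lists in all spots (black circles), in spots below the median smooth muscle share of 0.667% (green) and in spots at or above it (purple). The hydrolase, fat absorption, tuft, macrophage, ribosomal and plasma cell lists stay on 1 side of 0, and those of neurons, interstitial cells of Cajal, lymphoid cells, collagens, Hox genes and endothelium cross it.

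Immune genes divided by lineage. Of 25 tested B and plasma cell genes, 20 were higher in the large intestine, 16 by at least 2-fold, and 3 in the small, with a median log2 ratio of -1.67. The immunoglobulin light chain gene Iglc1 was at 54.2 and 101 CPM in small intestine against 930 and 911 CPM in large intestine, and Igha, the heavy chain of IgA, at 5839.9 and 5848 against 17486 and 16790 CPM. Jchain, which joins IgA into dimers, was at 1009 and 948 against 3235 and 3034 CPM. Over 28 tested variable segments (Igkv, Ighv and Iglv), all were at least 2-fold higher in the large intestine, with summed levels of 4.43 and 3.92 against 48.8 and 63.2 CPM. How many plasma cells these sums rest on was not tested. The mature B cell genes were low, with Ms4a1 at 0.164 and 0.199 against 0.824 and 0.662 CPM and Cd79a at 5.46 and 5.42 against 13.3 and 12.6 CPM, and the follicle chemokine Cxcl13 was at 0.452 and 0.399 against 4.17 and 3.26 CPM. Spib and Prdm1, higher in the small intestine at 7.47 and 6.48 against 2.06 and 1.92 CPM and 17.7 and 21.6 against 6.06 and 7.51 CPM, are also expressed in epithelium.

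Myeloid genes were on the same side as plasma cells. Of 32 tested macrophage and dendritic cell genes, 27 were higher in the large intestine, 13 by at least 2-fold, and 1 in the small by less than 2-fold, with a median log2 ratio of -1.03 that was -1.45 in low-muscle and -1.19 in high-muscle spots. Lyz2, the lysozyme of myeloid cells, was at 47.6 and 48.6 CPM in small intestine against 376 and 360.5 CPM in large intestine, and Cd14, a receptor for bacterial lipopolysaccharide, at 8.21 and 6.28 against 63.1 and 58.54 CPM. Folr2, a marker of tissue-resident macrophages, was at 0.411 and 0.731 against 7.15 and 7.73 CPM, and the complement gene C1qb at 42.49 and 46.6 against 136 and 139 CPM. Itgam was the 1 gene on the small intestine side, at 11.3 and 10.7 against 6.54 and 6.27 CPM.

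More T, NK and innate lymphoid genes were higher in the small than in the large intestine, though the median turned negative in high-muscle spots. Of 34 tested members, 21 were higher in the small and 9 in the large intestine, and 8 were at least 2-fold higher in the small and 2 in the large intestine; the median of 0.52 was 0.88 in low-muscle and -0.30 in high-muscle spots. Gzma, a protease of killer lymphocytes, was at 82.3 and 81.4 CPM in small intestine against 11.3 and 11.7 CPM in large intestine. It was low on the muscle side of the small intestine, with muscle-side ratios of -3.05 and -3.23, and near even in the large, with -0.14 and 0.10. Ccr9, the homing receptor for small intestine, was at 5.34 and 4.59 against 0.970 and 0.616 CPM, Cd8a at 5.30 and 6.75 against 1.67 and 1.67 CPM and Trdc, the constant segment of gamma-delta receptors, at 1.52 and 2.06 against 0.364 and 0.570 CPM. On the large intestine side, Xcl1 and Klrk1 had log2 ratios of -2.14 and -1.60, and neither changed sign in any setting. The general T cell gene Trac was close between the tissues, at 3.78 and 4.55 against 3.71 and 3.31 CPM, and Trbc2 overlapped at 7.10 and 7.71 against 8.48 and 6.82 CPM. In the list of granulocytes and mast cells, 4 of 12 tested genes were at least 2-fold higher in the small and 5 in the large intestine, and its median changed sign in low-muscle spots and among genes with at least 200 UMIs. The mast cell protease Cma1 was at 0.123 and 0.0332 against 4.70 and 5.98 CPM and another, Mcpt2, at 4.76 and 7.11 against 0.848 and 0.913 CPM.

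The counts of antigen presentation and interferon genes stand beside the 10.8% of all genes that were at least 2-fold higher in the small and the 10.2% in the large intestine. Of 11 tested MHC class II genes, 9 were higher in the large intestine, 2 by at least 2-fold, and 2 in the small. H2-Eb1 was at 232 and 229 against 453 and 454 CPM, while Cd74, the invariant chain, was at 941 and 1077 against 667 and 815 CPM. Of 21 tested MHC class I and peptide loading genes, 3 passed 2-fold on each side, and the median of -0.22 was 0.03 in low-muscle spots; the nonclassical gene H2-T3 was at 67.46 and 76.1 against 3.98 and 3.92 CPM. Of 47 tested interferon response genes, 3 were at least 2-fold higher in the small and 5 in the large intestine, and the median of -0.18 was 0.06 in low-muscle spots. Ifit1bl1 was at 68.53 and 73.4 against 412 and 418 CPM and Usp18 at 18.2 and 20.6 against 4.51 and 4.54 CPM. Of 27 tested genes of gasdermins and cell death, 5 passed 2-fold on each side, with Gsdme at 64.2 and 76.7 against 3.44 and 2.76 CPM and the cytokine Il18 at 22.3 and 21.04 against 182 and 189 CPM.

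Most genes of cytosolic ribosomal proteins and of nuclear-encoded respiration were higher in the large intestine. Of 92 genes in the list of cytosolic ribosomal proteins, 86 were higher in the large intestine, 66 by at least 2-fold, with a median log2 ratio of -1.49. A total of 4 of the list's genes were higher in the small intestine, among them Rps6ka5 at 5.54 and 6.38 against 2.57 and 2.62 CPM and Rps6kb2 at 18.4 and 21.50 against 16.1 and 17.02 CPM; they are kinases of ribosomal protein S6 that the list took in by their symbols. Without the kinases all 83 tested genes were higher in the large intestine. Rps19 was at 498 and 315 CPM in small intestine against 1875 and 1867 CPM in large intestine, and section 1 of the small intestine was above section 2 but well below the large intestine. In the sorted epithelial cells 89 of 90 kept genes of the list had the same sign, with a smaller median of -0.49. Of 96 tested nuclear genes of oxidative phosphorylation, 89 were higher in the large intestine, 15 by at least 2-fold, with a median of -0.72, and Ndufa7, a subunit of complex I, was at 138 and 122 against 436 and 464 CPM. The 13 genes encoded by the mitochondrial genome did not follow them. In all, 5 were higher in each tissue, 3 overlapped and none passed 2-fold, with a median of -0.04 that changed sign in 3 settings. Total mitochondrial UMIs were 5.80% and 5.90% against 5.84% and 5.04%. Of all tested genes, 10.8% were at least 2-fold higher in the small and 10.2% in the large intestine, and the lists that follow lay below these shares. Of 28 immediate-early and heat shock genes 2 were past 2-fold in the small and none in the large intestine, and their median of 0.44 was -0.06 in low-muscle spots. Unfolded protein response genes had 2 of 24 past 2-fold, both in the small intestine, with Trib3 at 5.62 and 7.34 against 0.509 and 0.525 CPM. None of 18 clock genes passed 2-fold, and their median of 0.32 was -0.08 in low-muscle spots.

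Grouping all tested genes by the stem of their symbol gave 261 families with at least 8 members, a view that did not depend on the lists. On the small intestine side the largest shares past 2-fold were those of Defa (18 of 18), Hoxb (8 of 11), the adenylate cyclases Adcy (5 of 9), the calcium channel subunits Cacna (5 of 11) and the matrix proteases Mmp (6 of 16). The solute carriers Slc had 70 of 275 members past 2-fold in the small (25.5%) and 29 in the large intestine (10.5%). On the large intestine side they were Igkv (20 of 20), Rpl (43 of 49), Hoxa (8 of 10), Hoxd (5 of 8), Rps (25 of 42) and the Toll-like receptors Tlr (5 of 9). Histone genes with symbols of Hist1 to Hist4 had 32 of 35 higher in the large intestine and 18 past 2-fold. Their summed level was 480 and 544 against 644 and 662 CPM. The spots collect polyadenylated RNA, so histone RNA without such a tail is not covered. The carboxylesterases Ces and the aldo-keto reductases Akr each had 6 of 12 past 2-fold in the large intestine. The muscle share of the sections moved with the tissue as described above, and its part in the Adcy and Cacna shares was not tested.

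Short promoter motifs were counted as a feature that the comparison did not use. A promoter was found for 11804 of 15373 tested genes. The GATA motif was in 6.83% of all these promoters, in 112 of the 1244 of genes at least 2-fold higher in the small and in 96 of the 1170 of genes at least 2-fold higher in the large intestine (9.003% and 8.21%). The HNF4 motif was in 0.441%, 0.884% and 0.684%, the HNF1 half-site in 4.43%, 6.35% and 4.36%, and the CDX motif in 6.74%, 8.60% and 8.97%. Among genes past 8-fold, a set added after these values were seen, the HNF4 motif was in 7 of 225 promoters (3.11%) on the small and 2 of 150 (1.33%) on the large intestine side. The CDX motif was in 22 (9.78%) and 29 (19.3%) of them, the GATA motif in 13.8% and 10.7%, and the HNF1 half-site in 11.1% and 11.3%. Hao2, a hydroxyacid oxidase, is shown as a gene on the large intestine side whose promoter (chr3:98893181-98893480, minus strand) holds a CDX motif, 111 bases before the start, and 3 HNF1 half-sites.
Hao2: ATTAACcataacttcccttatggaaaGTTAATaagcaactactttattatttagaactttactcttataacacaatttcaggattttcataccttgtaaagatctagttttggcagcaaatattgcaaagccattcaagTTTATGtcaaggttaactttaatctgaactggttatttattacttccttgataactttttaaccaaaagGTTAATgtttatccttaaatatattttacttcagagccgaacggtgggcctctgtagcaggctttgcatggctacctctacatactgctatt
Hao2 was at 1.31 and 1.26 CPM in small intestine against 167 and 159 CPM in large intestine.

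Libraries of sorted single cells of both tissues gave a second view of the same contrast, with 1 library a tissue. They came from digested tissue of C57BL/6 and Lgr5-eGFP-ires-CreERT2 mice, sorted for live cells with added stem and lymphatic endothelial cells, and 1668 small and 4858 large intestine cells with epithelial markers were summed. Of 14379 tested genes measured there, 33.2% were higher in the small intestine library, with a median log2 ratio of -0.27. Of the genes at least 2-fold higher in the small intestine sections, 1030 of 1354 (76.1%) had the same sign in the sorted cells, and of those higher in the large intestine sections, 1320 of 1502 (87.9%) did. All 28 fat absorption genes, all 18 hydrolases and all 23 Paneth genes kept their sign. Over all genes with non-overlapping sections that were measured there, 8680 of 12271 did. Some other lists kept it less often, with 34 of 48 xenobiotic, 15 of 25 cholesterol synthesis and 15 of 24 inducible defence genes. For gasdermins and cell death it was 13 of 24, and for mitochondrial fat oxidation 20 of 38. The xenobiotic median was 0.40 in the sorted cells against -0.71 in the sections. Lists of cells outside the epithelium were not compared there, since the summed cells were chosen by epithelial markers.

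**Figure D5:**
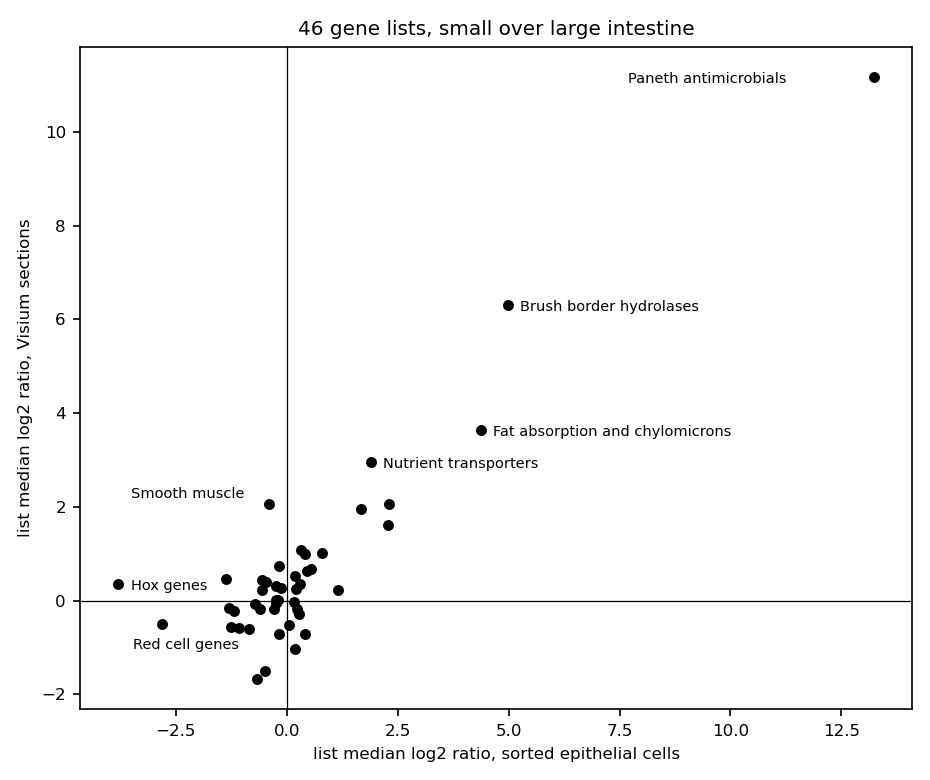
Median log2 ratio, small over large intestine, of 46 gene lists in the Visium sections (y axis) against the same lists in sorted epithelial cells (x axis), 1 point for each list. Paneth, hydrolase and fat absorption lists lie high on both axes of the plot. Lists of cells outside the epithelium are drawn too, but the sorted cells were chosen by epithelial markers, and those lists were not compared.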

How the data were processed

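Visium UMI counts for each gene and spot were used as deposited by the authors, who made them with Space Ranger 1.2.1, per the file headers. The genome build was mm10, per the submitters' processing notes; the annotation release is not given in the sources used here. Of 32285 gene IDs in the files, 32158 matched the RefSeq gene table. Spots with at least 500 UMIs were summed by section and scaled to CPM. Genes with at least 50 UMIs over the 4 sections were tested for overlap between tissues. A gene was past 2-fold when the lower section of the higher tissue was at least 2 times the higher section of the other, with 3 UMIs set for sections below 3. With technical duplicates there is no replicate error between animals, and no statistical test was made. Intervals are 95% intervals for summed UMIs, and UMI depth sets their width. Doublet calling does not apply to spots, and spot positions were not used.

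In the sorted single-cell libraries, cells with at least 500 genes, at most 20% mitochondrial UMIs and 3 or more UMIs of epithelial markers were summed, and doublets were not removed from them. Named genes were the 10 largest differences in each direction, leaving out unnamed gene models and ribosomal, mitochondrial and sex-linked genes. Within each list they were up to 3 in each direction and the most abundant overlapping member, with at least 100 UMIs in the higher tissue. Further list members were named after their values were seen, to describe each list whole. The parts compared and the gene lists were chosen with earlier results of these data known. The calculation was tested on simulated data. Alternatives were other spot and gene filters, scalings, muscle shares and left-out sections. Python 3.11.15, numpy 2.4.6, scipy 1.17.1 and pandas 2.3.3 were used. Some genes are not reported here.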

Additional observations from a re-analysis of the deposited data

How the results depend on the processing

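No paired analysis was possible because the section numbers name technical duplicates of different tissues and no test was made. Leaving out each section in turn gave 1720 to 2496 genes at least 2-fold higher in the small intestine (2496 without small intestine section 1, against 1658) and 1699 to 2066 in the large. These counts rise by construction, since fewer sections must agree. In spots of high muscle share, an alternative added after the data were seen, 937 genes were at least 2-fold higher in the small intestine, and the cause was not tested. Of 1376 tested genes in the lists or named, 604 were past 2-fold, and 5 of these changed direction in some setting. Gja1 had a log2 ratio of -0.31 and Rps6ka2 of -0.39 in spots of low muscle share. Rspo1, Rspo3 and Zfp503 were at -0.20, -0.22 and -0.042 in spots of high muscle share. The medians of 19 of 46 lists changed sign in at least 1 setting, as stated with each list. Levels near 3 UMIs per section are limited by depth.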
